A study of Arabidopsis thaliana with 9 samples.

Results

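Described here are the transcripts that stood higher in a line of Arabidopsis thaliana carrying an inducible DELLA protein than in plants without it, whether or not that protein had been switched on. They are 57 of the 22746 probe sets on the array that are no controls. RNA on the 9 arrays came from inflorescences without flowers later than stage 12, collected at 4 h in every group. All plants were ga1-3 rga rgl2, so that gibberellin synthesis was blocked and the DELLA genes RGA and RGL2 were lost in every group. One line carried in addition a fusion of RGA with the glucocorticoid receptor (RGA-GR) and was sampled after mock treatment (RGA-GR mock, 3 arrays) and after dexamethasone (RGA-GR Dex, 3 arrays). Plants without the transgene were sampled after dexamethasone (nontransgenic Dex, 3 arrays). There is no array of nontransgenic plants under mock treatment, so RGA-GR mock differs from nontransgenic Dex in both the transgene and the treatment. The promoter of the transgene, the dose of dexamethasone and whether the line is a single transformant are not given in the sources used here.

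DELLA proteins are nuclear repressors of growth that gibberellin removes by way of its receptor and the proteasome. Fused to the hormone-binding part of the glucocorticoid receptor, a DELLA protein is held in the cytoplasm until dexamethasone lets it enter the nucleus. Transcripts that follow DELLA activity would be sought in the difference between RGA-GR Dex and RGA-GR mock, while the transcripts described here were chosen for differing little between those groups and standing apart from the nontransgenic plants.

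The submitters deposited ratios, most of them relative to the median of the row across arrays, which are given here on the log2 scale. A value of 0 is therefore that median, and levels of different genes cannot be compared. Members were selected on the measured ratios of all 3 groups. A probe set was chosen when it passed a filter on low ratios, when its lowest RGA-GR value was at least 2.5 times its highest nontransgenic value, and when the mean log2 ratios of RGA-GR Dex and RGA-GR mock differed by less than 0.6. GID1A and the ALDH genes were to be left out, which removed 0 probe sets. Since the measured values chose the members, every difference below between the transgenic line and nontransgenic Dex, and between Dex and mock within the line, is a description without a test.

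Of the 17273 probe sets kept, 3231 (18.7%) had all 6 RGA-GR values above all 3 nontransgenic values, and 86 (0.498%) were at least 2.5-fold apart. The limit on the difference between Dex and mock left 57 of these, or 0.33% of the probe sets kept, and set aside 29, of which 26 were higher after Dex. A further 6 probe sets met both conditions but failed the filter: 246933_at, AT5G52740, AT5G46010, AT3G62380, AT3G03000 and AT1G06810. Members passed the filter through the arrays on which they were high, so their number is not support for a difference. The mirrored rule gave 46 probe sets that were lower throughout the transgenic line, where 12.1% of the probe sets kept had all 6 RGA-GR values below all 3 nontransgenic ones. The probe table names 1 gene for 19 members and none for 38.

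**Figure D1:**
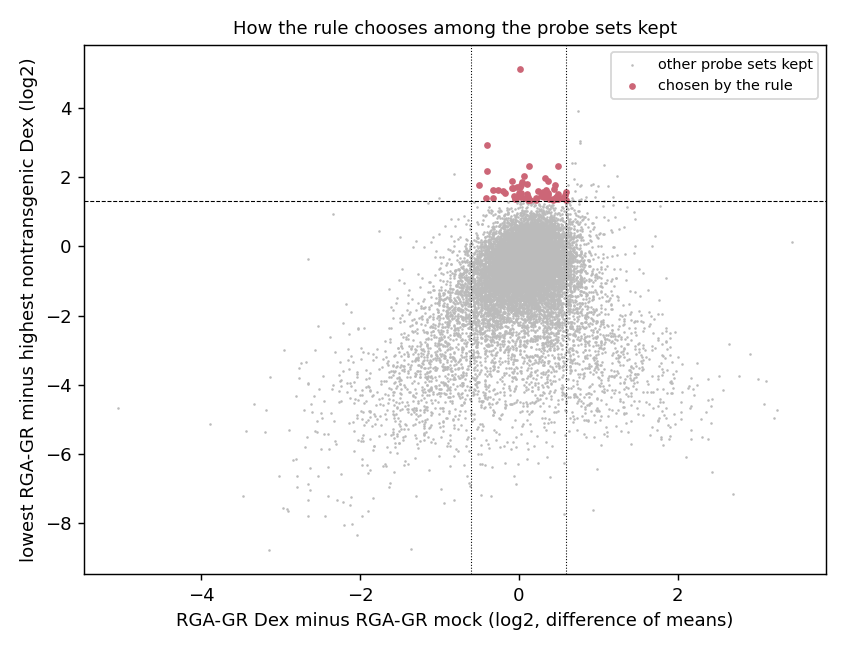
Each point is a probe set kept by the filter, with the difference between the means of RGA-GR Dex and RGA-GR mock on the horizontal axis and the lowest RGA-GR value minus the highest nontransgenic Dex value on the vertical axis, both in log2. The dashed line is the 2.5-fold threshold and the dotted lines are the limits of 0.6 on either side, which together enclose the 57 chosen probe sets in red.

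Across the 57 members the median difference between the mean of the 6 RGA-GR arrays and the mean of the nontransgenic arrays was 2.17 on the log2 scale, a 4.51-fold difference, with a range from 1.59 to 6.08. Over all probe sets kept the median of the same difference was 0.09. For 55 members the row median is 1, and with 6 high and 3 low values that median falls among the transgenic arrays, which is why their values lie near 0. Medians of the members were 0.00, 0.24 and 0.13 on RGA-GR mock replicates 1 to 3. They were 0.01, 0.56 and 0.34 on RGA-GR Dex replicates 1 to 3, and -1.89, -1.80 and -1.91 on the nontransgenic arrays.

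**Figure D2:**
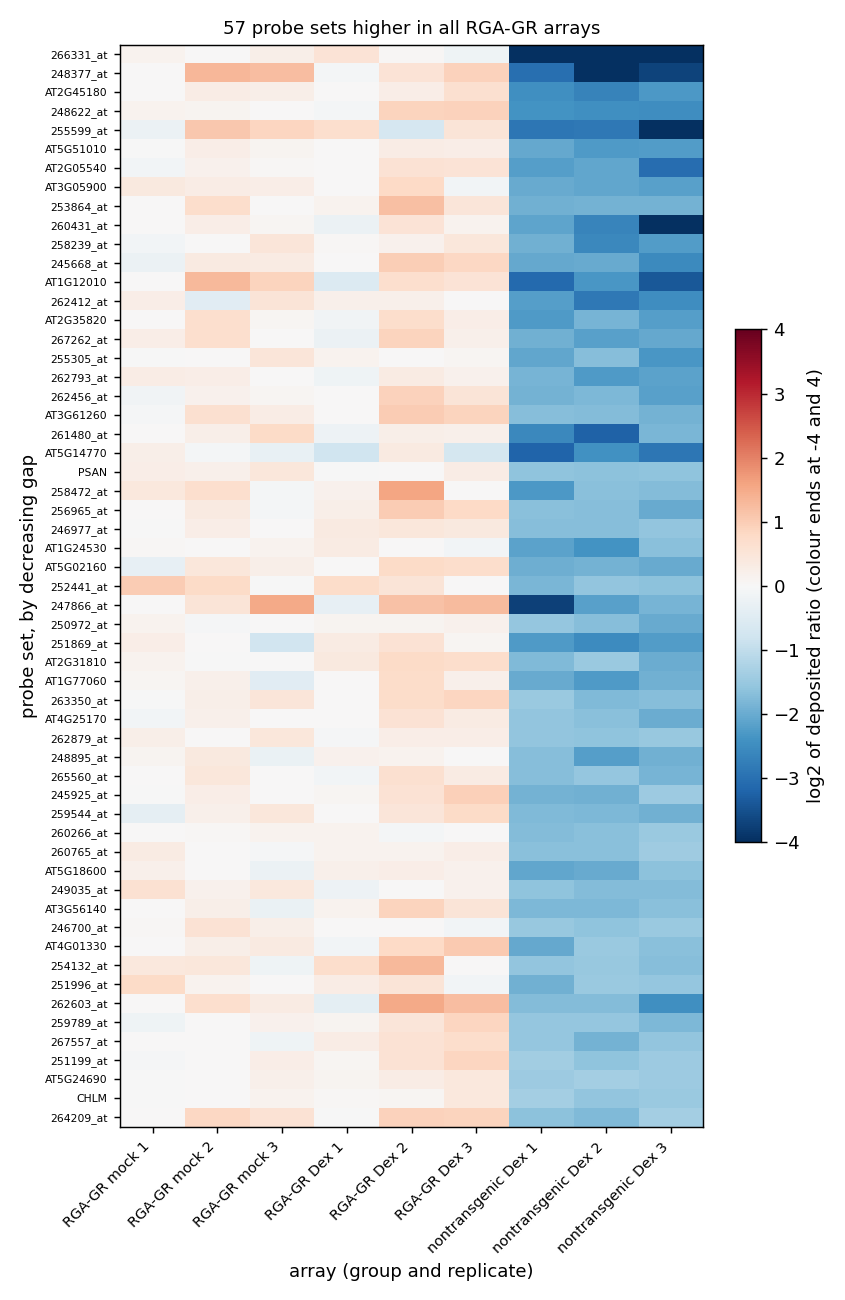
Colour gives the log2 of the deposited ratio for each of the 57 probe sets (rows, by decreasing gap between the lowest RGA-GR and the highest nontransgenic value) on each of the 9 arrays (columns). Rows without a gene name carry the probe set's identifier, and the 3 columns on the right, the nontransgenic arrays, are blue in every row.

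The member furthest from the nontransgenic plants was the probe set 266331_at, for which the probe table gives no gene. Its log2 ratios were 0.14, 0.00 and 0.22 on the mock arrays, 0.55, 0.05 and -0.18 on the Dex arrays, and -5.30, -5.90 and -6.64 on the nontransgenic arrays. The last is the smallest ratio in the table, 0.01, so that the size of this difference is uncertain beyond the 35-fold between the lowest transgenic and the highest nontransgenic value. The next was 248377_at, also unnamed, whose nontransgenic log2 ratios were uneven at -3.01, -5.26 and -3.69 against -0.08 to 1.34 on the transgenic arrays. The other 36 unnamed members differed by 1.67 to 3.63 on the log2 scale (3.18-fold to 12.4-fold), with a median of 2.14.

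Among the named members, those of the chloroplast and of photosynthesis come first. PSAN encodes subunit N of photosystem I, which lies on the lumen side of the thylakoid membrane near the docking site of plastocyanin. Its log2 ratios were 0.26, 0.19 and 0.44 on the mock arrays, -0.01, 0.00 and 0.29 on the Dex arrays and -1.62, -1.65 and -1.62 on the nontransgenic arrays. The nontransgenic arrays were within 0.03 of each other, and the difference was 1.93 ± 0.31 for mock and 1.73 ± 0.31 for Dex (moderated SE from limma, n = 3 arrays a group). CHLM encodes the magnesium-protoporphyrin IX methyltransferase, an enzyme of chlorophyll synthesis. On the log2 scale it stood at -0.01, 0.00 and 0.15 after mock, at 0.04, 0.09 and 0.43 after Dex and at -1.35, -1.59 and -1.47 in nontransgenic plants. That makes its difference 1.52 ± 0.31 for mock and 1.66 ± 0.31 for Dex, 3.01-fold over the 6 transgenic arrays, close to the threshold of the rule.

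AT5G24690 also lies just inside the threshold. It had log2 ratios of -0.03, 0.00 and 0.21 after mock, 0.11, 0.31 and 0.43 after Dex and -1.44, -1.37 and -1.45 without the transgene. It is the member gene with another probe set on the array, 246959_at, which is no member. That probe set ran from -0.41 to 0.41 on the transgenic arrays and from -1.52 to -0.99 on the nontransgenic ones, a difference of 1.31 against 1.59 on the member, so both probe sets separated the groups.

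AT5G02160 encodes a small thylakoid protein. Its log2 ratios were -0.34, 0.45 and 0.24 after mock, 0.00, 0.76 and 0.71 after Dex and -1.96, -1.89 and -2.02 in nontransgenic plants. Replicate 1 was the lowest of its group under both treatments. AT5G51010 encodes a protein of the rubredoxin-like family. Among all members with a name it had the second largest gap, 4.11-fold between the lowest transgenic and the highest nontransgenic value: -0.02 to 0.29 on the transgenic arrays and -2.06, -2.26 and -2.24 on the nontransgenic arrays. The 6 transgenic arrays lay close together here, at -0.02, 0.27 and 0.12 after mock and 0.00, 0.29 and 0.25 after Dex.

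AT1G12010 encodes an enzyme of the ACC oxidase family, which makes ethylene in the last step of its synthesis. It showed the largest difference of the named members, 10.7-fold over the transgenic arrays. Its log2 ratios were 0.00, 1.29 and 0.88 after mock, -0.55, 0.68 and 0.55 after Dex and -3.11, -2.32 and -3.40 in nontransgenic plants. In all 3 pairs of arrays with the same number it was lower after Dex than after mock. The means differed by 0.50 ± 0.58, with an SE from the fit without pairs. The SDs were 0.66 after mock, 0.68 after Dex and 0.56 in nontransgenic plants.

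AT2G31810 encodes a regulatory subunit of acetolactate synthase, the first enzyme of branched-chain amino acid synthesis. On the log2 scale it was at 0.15, -0.02 and 0.00 after mock, 0.40, 0.76 and 0.71 after Dex, and -1.78, -1.50 and -1.98 without the transgene. The Dex arrays lay above the mock arrays in each pair, and the difference of 0.58 ± 0.30 between their means is just under the limit of 0.6.

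For AT2G35820 and AT1G77060 no role is given here. AT2G35820 had log2 ratios of 0.00, 0.67 and 0.09 after mock, -0.15, 0.70 and 0.28 after Dex and -2.26, -1.87 and -2.20 in nontransgenic plants. AT1G77060 had 0.08, 0.20 and -0.44 after mock, 0.00, 0.74 and 0.21 after Dex and -2.02, -2.27 and -1.91 in nontransgenic plants. Replicate 2 was the highest of its treatment for both genes.

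Proteins of the cell surface and membrane make up another group. AT2G45180 belongs to the family of lipid transfer proteins and protease inhibitors and had the largest gap of the named members, 4.97-fold. It stood at 0.00, 0.29 and 0.23 after mock, at 0.00, 0.28 and 0.64 after Dex and at -2.46, -2.68 and -2.31 on the nontransgenic arrays (log2 ratios). AT2G05540 encodes a glycine-rich protein. Its log2 ratios were -0.10, 0.18 and 0.06 after mock, 0.00, 0.57 and 0.55 after Dex and -2.20, -2.08 and -3.05 without the transgene, with nontransgenic replicate 3 the lowest of its group. AT3G61260 encodes a remorin, a protein of plasma membrane domains. It was at -0.05, 0.63 and 0.29 after mock, 0.00, 1.03 and 0.88 after Dex and -1.69, -1.73 and -1.90 in nontransgenic plants (log2 ratios), and in each pair the Dex array was the higher.

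Other named members have roles in protein interaction, redox and organelle RNA. AT1G24530 encodes a WD40 repeat protein, with log2 ratios of 0.06, 0.00 and 0.13 after mock, 0.32, 0.01 and -0.12 after Dex and -2.13, -2.40 and -1.68 in nontransgenic plants. Its means after mock and Dex differed by 0.00 ± 0.44. AT5G18600 encodes a protein of the glutaredoxin family and was at 0.19, 0.00 and -0.24 after mock, 0.19, 0.25 and 0.18 after Dex and -2.08, -2.01 and -1.64 without the transgene. AT5G14770 encodes a pentatricopeptide repeat protein, of a family that acts on organelle RNA. Its log2 ratios were 0.23, -0.08 and -0.31 after mock, -0.79, 0.35 and -0.71 after Dex and -3.20, -2.42 and -2.88 in nontransgenic plants. Its row median is 0.61, so its divisor is not known, and its SE of 0.70 was the largest among the named members.

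AT3G05900 had log2 ratios of 0.40, 0.30 and 0.25 after mock, 0.00, 0.79 and -0.12 after Dex and -2.01, -2.09 and -2.18 in nontransgenic plants. AT4G25170 had -0.12, 0.20 and 0.00 after mock, 0.01, 0.59 and 0.32 after Dex and -1.58, -1.66 and -2.0 in nontransgenic plants. The mock arrays of both genes were tight, with SDs of 0.08 and 0.16. AT3G56140, of the RETICULATA-related family (2.02), and AT4G01330, a gene of the protein kinase family (2.14), differed by like amounts over the 6 transgenic arrays on the log2 scale. Of the 19 named members, 9 were higher on the Dex array in all 3 pairs (47.4%, against 25.1% of the probe sets kept). Lower in all 3 were 2 (10.5%, against 13.9%), and nothing is read from these counts.

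**Figure D3:**
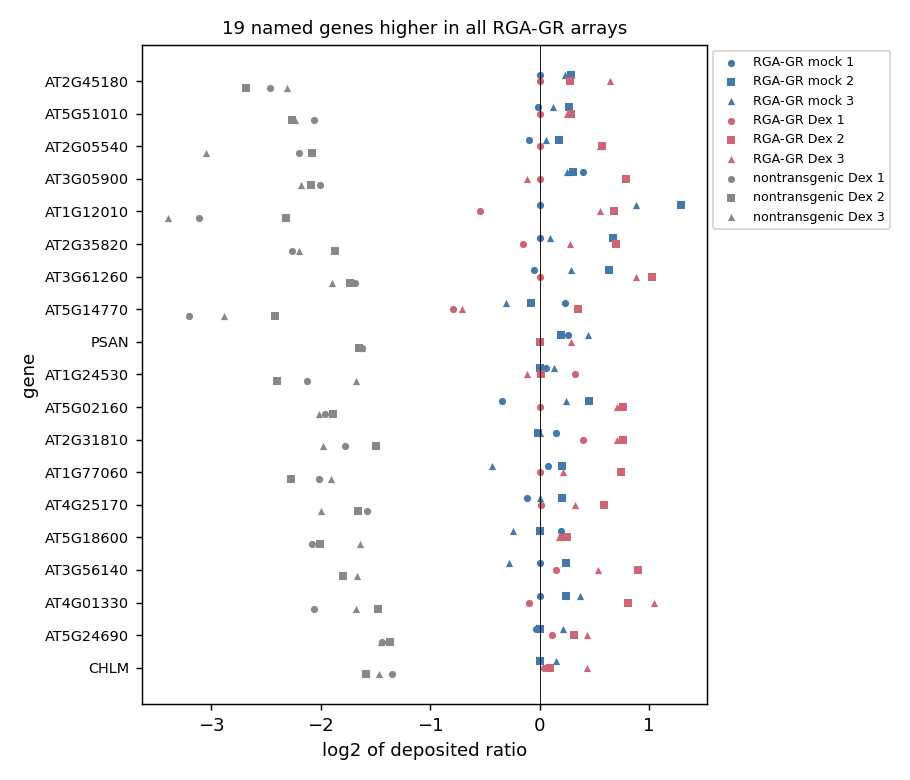
Each row is a named member and each point an array, placed by the log2 of its deposited ratio. Colours give the group and marker shapes the replicate; in every row the 3 grey nontransgenic points lie left of the 6 coloured transgenic points, and CHLM has the smallest distance between them.

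Just outside the 2.5-fold threshold lay 252543_at, 254174_at and AT5G63190, with gaps of 1.32, 1.32 and 1.31 on the log2 scale. Just inside lay 264209_at, CHLM and AT5G24690, with 1.33, 1.34 and 1.35. The members near the threshold therefore do not stand apart from probe sets that the rule left out. Differences between group means were as large outside as inside: 2.14, 1.62 and 1.92 for the former and 2.12, 1.59 and 1.59 for the latter.

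Values of the members within the transgenic line are described here without a test, since the rule limited the difference between Dex and mock. Means after Dex were above means after mock in 41 of 57 members (71.9%) and in 59.1% of the probe sets kept, and the limit of 0.6 bounds all of these differences, from -0.50 to 0.59. In the 3 pairs of mock and Dex arrays, the median difference of the members was 0.02, 0.31 and 0.27. The Dex array was the higher in all 3 pairs for 22 members (38.6%), against 25.1% of the probe sets kept, and the lower in all 3 for 6 (10.5%), against 13.9%. RGA-GR Dex replicate 2 was the highest of the 6 transgenic arrays for 26 members (45.6%), against 21.6% of the probe sets kept, and RGA-GR Dex replicate 1 for 3. The transgenic values spanned under 1 on the log2 scale in 34 members (59.6%, against 53% of the probe sets kept) and over 1.5 in 5 (8.77%, against 24.8%). The nontransgenic values spanned under 0.5 in 40 (70.2%, against 59.8%). The rule limits these spans and the differences between Dex and mock, and the members are no replicates. Nothing is therefore read from the spans or from these counts of members.

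As a background for the members, limma with Benjamini-Hochberg adjustment called 4660 of the probe sets kept between RGA-GR Dex and the nontransgenic plants (27%), 3029 of them higher (17.5%) and 1631 lower (9.44%). For RGA-GR mock against nontransgenic Dex it called 2635 (15.3%), 1566 higher (9.07%) and 1069 lower (6.19%), and 1349 were higher in both (7.81%). Between the 2 treatments of the transgenic line it called 0 (0%), while 1525 had an unadjusted p under 0.05 and eBayes without trend called 1. These contrasts were used by the rule, so nothing is read from them about the members. Both contrasts with nontransgenic Dex share its 3 arrays. The number called for RGA-GR mock against nontransgenic Dex rests on RGA-GR mock replicate 2: without it, limma called 0, with a smallest adjusted p of 0.058 and 4341 probe sets at an unadjusted p under 0.05. For RGA-GR Dex the count was 1874 without RGA-GR Dex replicate 2 and 2961 and 3099 without nontransgenic Dex replicates 1 and 2. For RGA-GR mock it was 1341 without RGA-GR mock replicate 1 and 1164, 1116 and 1357 without nontransgenic Dex replicates 1, 2 and 3. Between the treatments of the transgenic line it was 15 without RGA-GR Dex replicate 1.

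The list of photosynthetic tissue has 10 measured genes, of which PSAN was chosen by the rule on these contrasts and is left out of the counts. It was written with earlier results of these data known, so its counts are a description and no independent support. Of the other 9, 6 passed the test upward for RGA-GR Dex and 5 for RGA-GR mock against nontransgenic Dex, with 0 downward, where 17.5% and 9.07% of all probe sets kept passed upward. Their median differences were 0.83 and 0.80, against 0.14 and 0.07 over all probe sets kept. All 6 transgenic values lay above all nontransgenic ones in 7 of the 9, against 18.7% of the probe sets kept. LHCB4.2, which encodes a minor antenna protein of photosystem II, ran from -0.15 to 0.40 on the transgenic arrays and from -1.56 to -1.20 on the nontransgenic arrays. Its difference was 1.51 ± 0.30 for RGA-GR Dex (adjusted p = 0.00785 in limma) and 1.47 ± 0.30 for RGA-GR mock (adjusted p = 0.019). PSAE-1, another subunit gene of photosystem I, rose by 0.94 ± 0.25 and 1.27 ± 0.25, and PRK, which encodes phosphoribulokinase of the Calvin cycle, by 0.84 ± 0.22 and 0.80 ± 0.22. RCA, the Rubisco activase gene, was 2.26-fold higher over the transgenic arrays. LHCB4.3 and SBPASE, a Calvin cycle phosphatase gene, had differences of 0.00 and 0.14 for RGA-GR Dex and passed in neither contrast. PSBW, a gene of photosystem II, also passed in neither, at 0.50 ± 0.18 for RGA-GR Dex and 0.56 ± 0.18 for RGA-GR mock. PSBY, another gene of photosystem II, passed for RGA-GR Dex at 0.83 ± 0.26 and not for RGA-GR mock at 0.76 ± 0.26.

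These counts depended on arrays and scaling. Upward calls for RGA-GR Dex among the 9 were 2 without RGA-GR Dex replicate 2, 3 without RGA-GR Dex replicate 3, 2 after quantile normalization and 3 with array medians subtracted. For RGA-GR mock they were 0 without RGA-GR mock replicate 2, 2 without nontransgenic Dex replicate 2, and 3 without RGA-GR mock replicates 1 or 3, without nontransgenic Dex replicates 1 or 3 and after quantile normalization. With the transgenic arrays blocked by replicate, 4 passed upward in each contrast. The 5 arrays with a spike-in, described further on, hold 1 array of each transgenic group, so no calls from them are given. The median of the 9 for RGA-GR Dex was 0.67 after quantile normalization and 0.64 with array medians subtracted.

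Chlorophyll is made from tetrapyrroles, whose branch toward magnesium includes the step of CHLM. A list of 10 measured genes of tetrapyrrole synthesis and chlorophyll breakdown was written after CHLM had been seen among the members. Of its 9 genes other than CHLM, 2 passed upward in each contrast with nontransgenic Dex and 0 downward. Over all probe sets kept, 17.5% passed upward for RGA-GR Dex and 9.07% for RGA-GR mock, so nothing is read from this count. The 2 genes were HEME1 and HEME2, which encode uroporphyrinogen decarboxylase, a step shared by heme and chlorophyll. HEME1 ran from -0.06 to 0.44 on the transgenic arrays and from -1.04 to -0.52 on the nontransgenic ones (log2 ratios), and rose by 0.90 ± 0.22 for Dex and 1.12 ± 0.22 for mock. The median difference of the 9 was 0.16 for RGA-GR Dex and 0.19 for RGA-GR mock, and with array medians subtracted -0.03 and 0.05. CHLI2, GSA1, NOL and HEMB1 lay within 0.31 of the nontransgenic mean in both, and HEMA2 was at -0.04 and 0.55. HEMA3 had the lowest values of the list, -1.70 ± 1.12 for RGA-GR Dex and -3.35 ± 1.12 for RGA-GR mock (adjusted p = 0.282 and 0.0674 in limma), and was called lower for mock with an offset and without RGA-GR mock replicate 3. PORB, the gene of a protochlorophyllide reductase, differed by 0.74 ± 0.36 and 0.85 ± 0.36 and did not pass. Upward calls among the 9 for RGA-GR Dex were 0 with the spike-in batch as a term, after quantile normalization and without RGA-GR Dex replicate 2. They were 1 with array medians subtracted, with the transgenic arrays blocked by replicate, and without RGA-GR Dex replicate 1 or nontransgenic Dex replicates 1 or 2. For RGA-GR mock the count was 0 without RGA-GR mock replicate 2. No calls are given from the 5 arrays with the spike-in, as above.

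**Figure D4:**
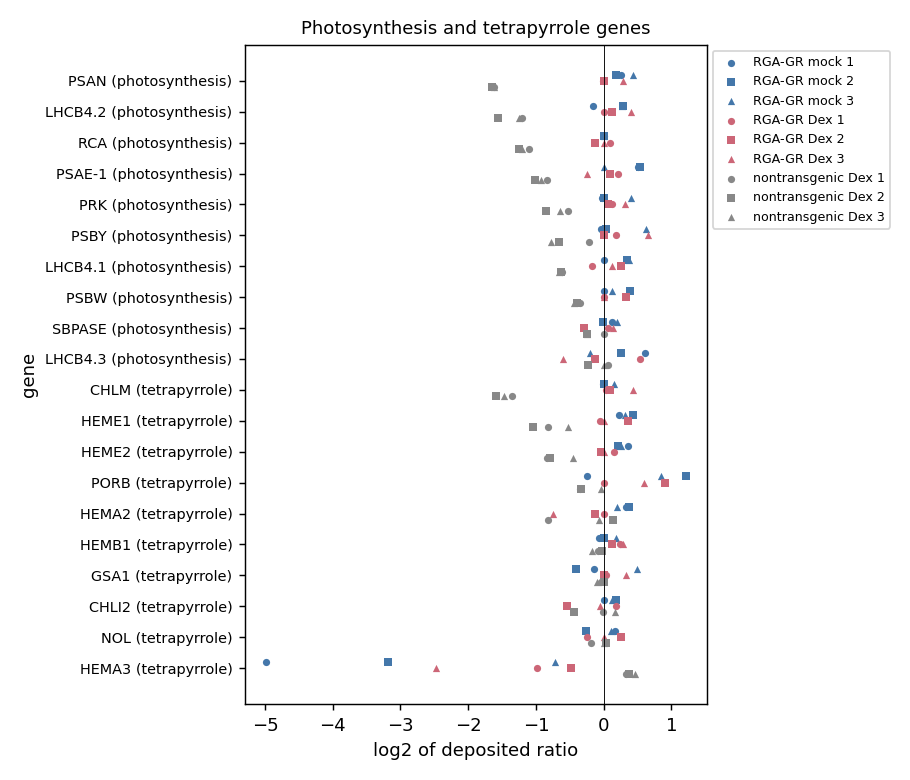
Points are arrays, placed by the log2 of the deposited ratio, for the 10 measured genes of the photosynthetic tissue list and the 10 of the tetrapyrrole list, each list ordered by the difference between transgenic and nontransgenic arrays. Grey nontransgenic points lie left of all coloured points for 8 of the first list and for CHLM, HEME1 and HEME2 of the second.

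In the list of ethylene synthesis and response, 2 genes were measured, the member AT1G12010 and EIN3, the gene of the central transcription factor of ethylene signalling. Only EIN3 was not chosen by the rule, and this list too was written with earlier results of these data known. EIN3 was at 0.14, 0.22 and 0.00 after mock, -0.05, 0.57 and 0.31 after Dex and -0.91, -0.82 and -1.01 in nontransgenic plants (log2 ratios). It rose by 1.20 ± 0.23 for RGA-GR Dex (adjusted p = 0.00764 in limma) and by 1.04 ± 0.23 for RGA-GR mock (adjusted p = 0.0231). The call for RGA-GR mock was lost without RGA-GR mock replicates 1 or 2 and with the spike-in batch as a term. An added list of photosystem I subunits held only PSAN, a member, and PSAE-1, both given above. The other lists, among them auxin response, gibberellin perception and signalling, defence, cytochrome P450 and glycosyltransferases, held 0 members. Only 0.33% of the probe sets kept are members, so 0 in lists this short does not show that their genes were unchanged.

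The 19 named member genes were not gathered in a single region, and the 38 members without a gene have no position here. By the gene table, 3, 4, 3, 3 and 6 of the 19 named genes lie on chromosomes 1 to 5, or 15.8%, 21.1%, 15.8%, 15.8% and 31.6%, against 26.5%, 14.4%, 20.3%, 14.4% and 23.6% of the genes measured. The closest pair is CHLM (AT4G25080) and AT4G25170, with 8 protein-coding genes between them. Of the 16 measured genes that directly flank a member, 2 (12.5%) were higher in the transgenic line by over 1 on the log2 scale, against 8.54% of all measured genes. These were AT5G02150 beside AT5G02160, at 1.65, and AT2G31800 beside AT2G31810, at 1.37, while AT4G25160 beside AT4G25170 was lower, at -1.19. The median over the 16 was 0.30, against 0.08 over all. No check of which strand or probes could be shared between neighbours was made.

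Other measures separated the transgenic arrays from the nontransgenic ones as well. Late pollen genes, a list also written with earlier results of these data known, were lower. Of 6 measured, 5 passed downward for RGA-GR Dex and 3 for RGA-GR mock, against 9.44% and 6.19% of the probe sets kept. Their median differences were -4.03 and -2.38. The median log2 ratio of that list was 1.48 to 1.82 on the nontransgenic arrays, 0.69, -0.98 and -1.15 on the mock arrays and 0.00, -3.26 and -2.23 on the Dex arrays. Replicate 1 of the transgenic line thus held the pollen transcripts least reduced, and there the median difference of the members was 2.03, against 2.38 and 2.15 in replicates 2 and 3. In such bulk samples, fewer cells of a type and less RNA per cell cannot be told apart. The pollen counts fell to 2 for RGA-GR Dex without RGA-GR Dex replicate 2 or nontransgenic Dex replicate 1, to 3 without RGA-GR Dex replicate 3 or nontransgenic Dex replicate 2, and to 0 for RGA-GR mock without RGA-GR mock replicates 2 or 3 or any nontransgenic array. Blocking the transgenic arrays by replicate gave 3 and 0, and quantile normalization 4 and 0.

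Of 4 measured tapetum and pollen wall genes, 1 rose and 2 fell for RGA-GR Dex. Of 4 seed storage and embryo genes 1 rose, PAP85, and 1 fell. Among all probe sets kept, 17.5% were called higher and 9.44% lower there, so nothing is read from such small counts. The list of root markers had 1 measured gene, PYK10, at -0.56 ± 0.37 for RGA-GR Dex, and that of the shoot meristem had 0. Since the values are ratios, they do not show whether a marker was present or absent in the tissue.

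The probe set for 25S rRNA was at 0.00, 4.15 and -1.01 on the mock arrays, 3.29, 4.71 and 2.93 on the Dex arrays and -3.58, -4.02 and -4.12 on the nontransgenic arrays (log2 ratios). The difference between GAPDH signals at the 5′ and 3′ ends ran from -0.58 to 0.37 in the transgenic line and from 0.38 to 0.96 without it, and those of actin and ubiquitin overlapped. Poly-A spike-in probe sets had medians of 0.00 to 1.25 on the nontransgenic arrays and replicate 3 of the transgenic line. These are called arrays with spike-in signal here. On replicates 1 and 2 the medians were -3.73 to -3.23. No label names this split, which was taken from the ratios and used as a batch. All 3 nontransgenic arrays lie on 1 side, so a batch term compares replicate 3 of the transgenic line with replicates 1 and 2. The 5 arrays with the signal include 1 RGA-GR mock and 1 RGA-GR Dex array. In the 5 arrays with that signal the median difference of the same members, which the rule had already set apart, was 2.15. With the transgenic replicates without it the median difference was 2.18. Array medians also differed, at -0.178 to -0.069 in the transgenic line and -0.287 to -0.245 without it. With array medians subtracted, the median over all probe sets kept moved from 0.09 to -0.07 and that of the members from 2.17 to 2.01, the smallest difference of a member being 1.42. The part of the rRNA signal, the pollen transcripts and the RNA ends in the members' difference was not tested.

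**Figure D5:**
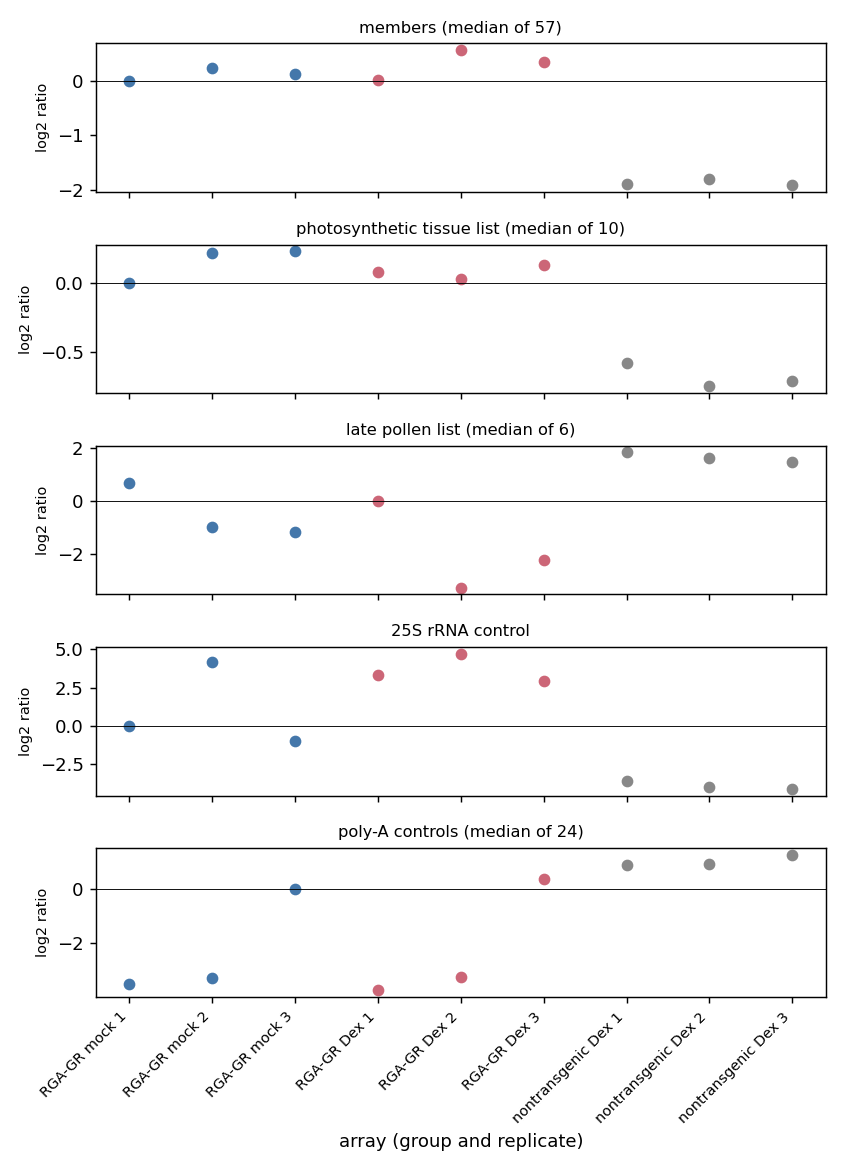
Each panel gives 1 log2 ratio or median log2 ratio for each of the 9 arrays, coloured by group: the 57 members, the photosynthetic tissue list, the late pollen list, the 25S rRNA control probe set and the 24 poly-A control probe sets. In the panel of the members the transgenic arrays lie between 0.00 and 0.56 and the nontransgenic arrays between -1.91 and -1.80, while the pollen, rRNA and poly-A panels differ among the transgenic replicates.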

How the data were processed

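Per the labels, RNA was purified with an RNeasy kit and its biotin-labelled product put on Affymetrix arrays. The submitters' processing notes name GCOS, with no version. The deposited values are linear ratios: the row median over the 9 arrays is exactly 1 in 15112 of 22810 rows and under 1 in 7698, and what the latter were divided by is not given in the sources used here. The smallest deposited ratio is 0.01. Ratios were taken to log2 as deposited, with neither an offset nor further scaling. The members and lists were chosen with earlier results of these data known. The lists of tetrapyrrole synthesis and of photosystem I subunits were added after values were seen.

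A probe set was kept when its ratio was above its array's 40th percentile, taken over the 22746 probe sets that are no controls, on at least 3 of 9 arrays, which kept 17273. By the probe table, 13513 probe sets have 1 gene, 503 have several and 8730 have no gene. Of the first, 13436 were found in the TAIR10.1 gene table, from which only names and gene order were taken. The test was limma (version 3.58.1, R 4.3.3): lmFit on all 9 arrays, which leaves 6 residual degrees of freedom, eBayes with a trend, two-sided p-values adjusted by Benjamini-Hochberg across all kept probe sets, and a threshold of 0.05. The fit was tested on simulated data. No p is given for a member, since the rule used every contrast. Plots used matplotlib 3.10.9 (Python 3.11.15).

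Any member could be named. Values on every array were to be given for members with 1 gene: the 15 with the largest gap between the lowest RGA-GR and the highest nontransgenic value, those with another member probe set or with at most 2 genes to another member (0 of either), up to 4 per list, and the 3 just inside the threshold. From each list up to 4 genes past the threshold for RGA-GR Dex were to be named by the lowest adjusted p. This was done for the lists of photosynthetic tissue, tetrapyrrole synthesis and ethylene. Most passing genes of the other lists were not named. PSAE-1, LHCB4.3, SBPASE, PORB, CHLI2, GSA1, NOL, HEMB1, PSBW, PSBY, HEMA2, HEMA3, PYK10 and the genes flanking members fall outside this rule and were named after their values were seen. Same-numbered mock and Dex arrays deviated together from their group means (r = 0.332, 0.118 and 0.325 across probe sets). They were described as pairs on that ground, not by their labels. The main fit and every SE given here ignore these pairs, which enter only the descriptions by pair and the replicate blocks. For nontransgenic arrays r at the same number was -0.039 to 0.036, so they were not paired. The alternatives were other scalings, filters, folds, limits, an offset of 0.0894 (0.1 of the table median), other eBayes settings, replicate blocks and each array left out in turn. Those built on the spike-in signal, on pairs within the transgenic line or on list counts were added after seeing the data. RGA, RGL2 and GA1, the genes named in the genotype, are not analysed here, and members without a gene in the probe table are given no name. Whether a probe set for the transgene's own transcript is among those unnamed members was not examined.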

Additional observations from a re-analysis of the deposited data

Results flagged for a closer look

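Of the 64 control probe sets, which enter no comparison between groups, the 25S rRNA probe set lay above its level in nontransgenic Dex on all 6 RGA-GR arrays, by 6.25 on the log2 scale between means, and was the 1 control more than 2.5-fold apart. The 5S rRNA probe set also lay above it on all 6 arrays, by 1.76. Outlying samples were not sought, since each group has 3 arrays.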

How the results depend on the processing

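The median difference of the 57 members from nontransgenic Dex was 2.17. It ran from 2.01 to 2.24 over the other scalings and the arrays with or without spike-in signal. With each array left out it was 2.08 to 2.25, and with the offset of 0.0894, which shrinks low ratios by construction, 1.86. The same 57 members were used in every setting and the rule had already set their groups apart, so this steadiness is no support for a difference. The number chosen by the rule moved more: 57 became 141 at 2-fold and 24 at 3-fold, 29 with a Dex and mock limit of 0.3 and 86 with none, 35 with array medians subtracted, 28 with the offset, 144 in the 5 arrays with spike-in signal and 133 with transgenic replicates 1 and 2 alone, the last 2 from fewer arrays. It was 50 to 96 with each array left out (87 and 96 without RGA-GR mock replicates 1 and 3, 94 and 91 without nontransgenic Dex replicates 1 and 3), 48 after quantile normalization, 63 without the filter and 56 with the filter at the 60th percentile. Leaving out an array can only loosen the 2.5-fold condition, since its lowest and highest values then come from fewer arrays. Calls for RGA-GR Dex against nontransgenic Dex were 4660 and became 2906 after quantile normalization, and 1874 to 4881 with each array left out. With array medians subtracted they were 4004, of which 1751 were higher, against 3029 of 4660 as deposited. Calls for RGA-GR mock against nontransgenic Dex were 2635 and became 1123 after quantile normalization, 1412 with the spike-in batch as a term, 1029 in the 5 arrays with spike-in signal and 0 to 2773 with each array left out. In the 5 arrays with spike-in signal each contrast has 1 transgenic array, so no calls from them are given. Over all 9 arrays, higher calls for RGA-GR mock were 839 of 2251 with array medians subtracted and 592 of 1123 after quantile normalization. For RGA-GR Dex they were 1553 of 2906 after quantile normalization. Between the treatments of the transgenic line the count was 0, 1 in eBayes without trend and 0 to 15 with each array left out. A replicate block over all 9 arrays gave 5131, 3181 and 0 calls in the same order, and a replicate block within the transgenic line 3935, 2477 and 0, which changed no other call by over 1.5 times. The cause of these shifts was not tested. With 3 arrays a group and no separate measure of background, dim probe sets and the 2 members with a row median under 1 are the least certain.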

Other observations

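The 29 probe sets set aside by the limit on Dex and mock met the same 2.5-fold condition as the members. Their differences from the nontransgenic plants over the transgenic arrays ran from 2.09 to 5.87 on the log2 scale. Most of them were above the members' median of 2.17, while the members ran from 1.59 to 6.08. PAP85, a gene of a vicilin-like seed storage protein, was 44.1-fold higher over the transgenic arrays (5.46 on the log2 scale), and the other seed and embryo genes measured, OLEO3, LEA and LEA18, had differences of -0.57, -2.09 and -1.87. AT2G30600 has 2 probe sets in this group, with differences of 3.50 and 2.81, and AT1G19540, SAMTL, AT1G10340 and PDF1.4, a gene of the plant defensin family, had 3.06, 3.01, 3.07 and 2.65.

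Among named genes at least 2.5-fold apart, 3 pairs lie within 20 genes of each other by the gene table: SAMTL (AT2G35800) and the member AT2G35820 with 1 gene between them, AT1G19540 and PDF1.4 (AT1G19610) with 5, and CHLM and AT4G25170 with 8. These pairs were noticed after the values were seen, and no test was made.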
